A study of Mus musculus with 2 samples.

Results

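Activated cardiac fibroblasts secrete matricellular proteins, which sit in the matrix but act mainly on cells and on the assembly of collagen rather than as load-bearing fibres. Chromatin accessibility was examined at 8 genes of this activated state, Postn, Tnc, Sparc, Spp1, Cthrc1, Fap, Cilp and Comp. Their peaks were the rows of the deposited table that carry one of these symbols and the intergenic rows whose nearest transcription start site (TSS), as the table gives it, belongs to one of them. This gave 32 of 63316 peaks, 16 by symbol and 16 intergenic, for 8 of the 20186 genes that the same assignment gives a peak.

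Primary cardiac fibroblasts of the mouse were given TGF-β, the main cytokine that turns fibroblasts into matrix-producing myofibroblasts, at 5 ng/ml for 24 h. Before that the cells had received a scrambled siRNA (SCR) or an siRNA against Piezo2, a mechanically gated ion channel (siPiezo2). Each condition had 1 library, and both received TGF-β, so the comparison asks whether accessibility differs with Piezo2 knockdown in stimulated cells, with no unstimulated sample beside it. ATAC-seq does not measure the transcript that an siRNA removes, so the knockdown itself is not checked by these data. The study kept its mouse lines on a C57BL/6 J background. The age of the mice and the number of cultures behind each library are not given in the sources used here, and the text deposited with the series describes Cre-mediated knockout of Tet3 instead of siRNA, which leaves the assignment resting on the sample labels and the study's description of this experiment.

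ATAC-seq counts the fragments that a transposase can cut out of open chromatin. Values below are normalized read densities as deposited, and log2 ratios are log2((siPiezo2 + 1)/(SCR + 1)), where a negative value means lower density in siPiezo2. With 1 library per condition, no difference has a replicate check and no test was made. The 95% exact binomial (Clopper-Pearson) intervals come from the reads behind the densities and cover counting error only. Read totals over the peaks were 4615335 for SCR and 2754046 for siPiezo2, with medians of 58 and 36 per peak. Over all 63316 peaks the median log2 ratio was -0.13 and 63.7% lay below 0, and 64.0% had been called as peaks in SCR only, so the values at the 8 genes are read against this shift. With 1 library each, the depth of the libraries and the condition cannot be told apart, nor can a smaller share of cells in which a site is open and less opening per cell.

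The labelled cell type was checked at TSSs. Of 10 fibroblast markers, 9 had a peak within 1 kb of a TSS, the exception being Lum, against 0 of 10 macrophage and leukocyte markers, 1 of 8 endothelial, 1 of 8 cardiomyocyte and 3 of 6 smooth muscle and pericyte markers. Density summed over the macrophage and leukocyte list, all of it away from TSSs, was 562 in SCR against 428 in siPiezo2, with a median log2 ratio of -0.37 over the 7 genes with a peak. For fibroblast markers the sums were 3317 and 2628 and the median was -0.31. The part of these shifts in the results below was not tested.

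Promoter sequences are shown for Postn, Tnc and Sparc, 3 of the 4 genes with a peak within 1 kb of a TSS (the other is Cthrc1). That of Spp1, which had no such peak, is also shown. They are RefSeq promoters on the assembly GRCm38.p6, from 250 bases before to 50 after the start of the transcript, 5′ to 3′. Capitals mark matches on either strand to 4 motifs. These are GAGGAAGT, which the myeloid factor PU.1 binds, TGTGGT, the core bound by RUNX factors, CAGAC, the element bound by the SMAD proteins downstream of TGF-β, and the TATA box written as TATAAA. A CArG box (SRF), GGAATG (TEAD) and TGANTCA (AP-1) were also searched, and no match shares bases with another in these 4 sequences.
Postn, chr3:54360857-54361156, plus strand: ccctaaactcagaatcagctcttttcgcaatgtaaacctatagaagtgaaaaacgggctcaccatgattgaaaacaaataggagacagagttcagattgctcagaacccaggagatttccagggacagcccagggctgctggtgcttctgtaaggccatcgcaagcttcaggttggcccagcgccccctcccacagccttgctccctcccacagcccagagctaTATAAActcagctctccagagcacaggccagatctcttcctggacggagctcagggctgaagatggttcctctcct
Tnc, chr4:64046966-64047265, minus strand: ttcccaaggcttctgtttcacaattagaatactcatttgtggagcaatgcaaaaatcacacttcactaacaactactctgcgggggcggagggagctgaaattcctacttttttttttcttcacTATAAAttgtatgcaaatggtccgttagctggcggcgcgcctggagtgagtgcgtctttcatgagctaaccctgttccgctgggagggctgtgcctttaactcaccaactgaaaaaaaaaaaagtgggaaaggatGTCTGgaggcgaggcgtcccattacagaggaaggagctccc
Sparc, chr11:55420031-55420330, minus strand: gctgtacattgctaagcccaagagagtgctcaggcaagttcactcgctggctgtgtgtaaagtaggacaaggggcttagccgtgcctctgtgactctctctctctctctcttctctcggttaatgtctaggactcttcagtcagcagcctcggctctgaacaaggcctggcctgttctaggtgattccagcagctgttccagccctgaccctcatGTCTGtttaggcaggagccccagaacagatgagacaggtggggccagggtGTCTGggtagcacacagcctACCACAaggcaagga
Spp1, chr5:104434861-104435160, plus strand: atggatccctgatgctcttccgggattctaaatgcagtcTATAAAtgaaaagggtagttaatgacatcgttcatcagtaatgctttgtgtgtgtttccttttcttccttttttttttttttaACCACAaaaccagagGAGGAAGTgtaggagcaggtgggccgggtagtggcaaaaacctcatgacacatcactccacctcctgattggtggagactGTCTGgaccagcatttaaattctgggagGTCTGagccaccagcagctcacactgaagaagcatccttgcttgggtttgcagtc

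The Postn promoter held TATAAA 26 bases upstream of the start, where a TATA box usually lies. The Tnc promoter held TATAAA 126 bases upstream and CAGAC, on the opposite strand, 10 bases into the transcript. The Sparc promoter held TGTGGT and 2 copies of CAGAC, and its start lies 180 bases upstream of the transcript start in the peak table. The Spp1 promoter held GAGGAAGT (PU.1) 113 bases upstream, TGTGGT (RUNX), a TATAAA 211 bases upstream and 2 copies of CAGAC. Of all 32851 RefSeq promoters of this length, 1052 held the PU.1 letters, while 16.8% held those of RUNX, 49.6% those of SMAD and 13.6% those of the TATA box. The CArG box (1.63% of all promoters), GGAATG (14.7%) and TGANTCA (7.81%) were not found in these windows, nor in the other 4 promoters of the members, which include 1 of Cilp. No match is shown to be a bound site. Promoters of Cthrc1, Fap and Comp were not analysed here.

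Accessibility at the 8 genes was lower in siPiezo2 than in SCR in most places. Of the 32 peaks, 26 (81.3%) had a negative log2 ratio, the median was -0.37 (quartiles -0.59 and -0.16), and the values ran from -1.16 to 0.38. Densities had a median of 29.4 in SCR against 21.2 in siPiezo2. Below 0.66 of the SCR density were 8 of 32 peaks, against 13.5% of all peaks, and above 1.5 of it were 0, against 3.21%. The counting interval lay below 0 at 11 peaks (34.4%; all peaks, 12.6%) and above 0 at 1 (all peaks, 4.03%). Peaks called in both libraries numbered 9, those called in SCR only 23 (71.9%; all peaks, 64.0%), and none was called in siPiezo2 only. A peak called in SCR only entered the table through the library where it was high. All 8 peaks below 0.66 were of that kind, 8 of 23 (34.8%; all SCR-only peaks, 18.3%), while of those called in both libraries it was 0 of 9 (all such peaks, 5.36%), so the count of 8 does not by itself support a lower level.

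**Figure D1:**
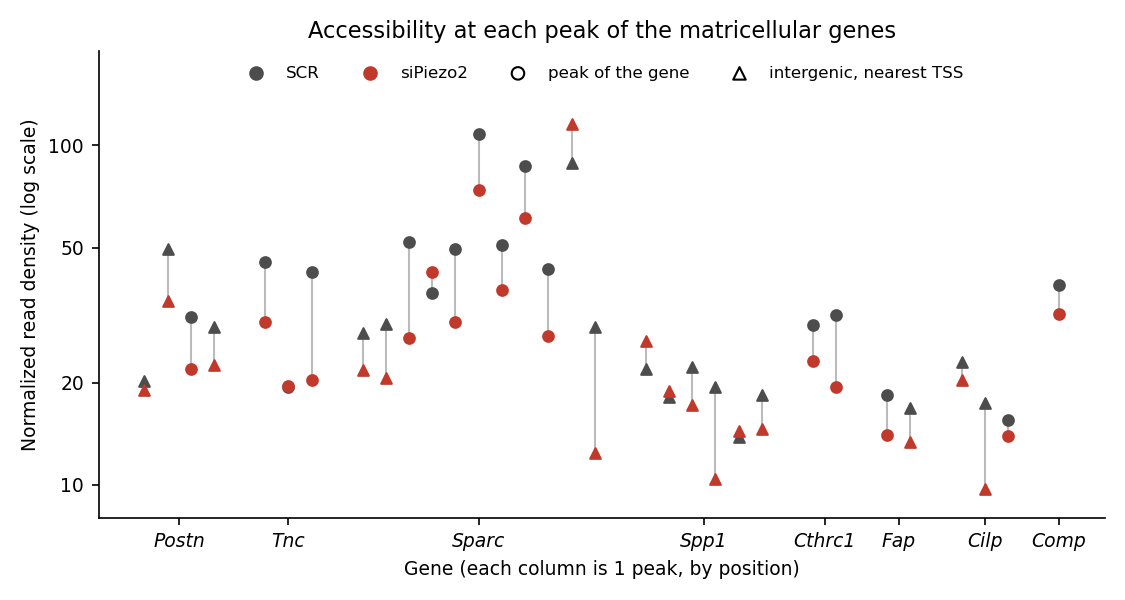
Normalized read density (log scale) at each of the 32 peaks, with SCR in grey and siPiezo2 in red joined by a line, circles for peaks carrying the gene's symbol and triangles for intergenic peaks. SCR lies above siPiezo2 at 26 peaks, and the clearest exception is an intergenic Sparc peak at 89.0 in SCR against 116 in siPiezo2.

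Every one of the 8 genes was lower in siPiezo2 when densities were summed over its peaks, and their median was -0.35, where that of all genes with a peak was -0.11. Below 0 were 65.7% of all genes, and also all genes with a peak on the fibroblast, macrophage and leukocyte, smooth muscle and pericyte, and other activated fibroblast lists. Only Tnc was below 0.66 of SCR, 1 of 8 genes, against 6.45% of all genes, and by a margin (-0.604) that it lost under each of the 4 other scalings (-0.52 to -0.46), and 0 were above 1.5, against 1.49%. The interval lay below 0 for 4 genes (Postn, Tnc, Sparc and Cthrc1), against 18.6% of all genes, and above 0 for 0, against 4.41%. That of Cthrc1 counts reads shared by its peaks more than once, and with 1 of its 2 overlapping windows it included 0 (-0.97 to 0.24). Sparc has peaks that share reads too, and with separate windows only its interval stayed below 0 (-0.46 to -0.18). The variance at peaks called in both libraries exceeded counting error 2.08 times by a robust estimate (from the median absolute deviation) and 4.37 times as a mean square. Widened by the robust estimate, the interval of Cthrc1 ran from -1.12 to 0.072 and the other 3 stayed below 0 (all genes, 9.01%). Widened by the mean square, those of Postn (-0.98 to 0.17), Tnc (-1.28 to 0.059) and Cthrc1 (-1.39 to 0.34) included 0, and that of Sparc (-0.63 to -0.091) stayed below it (all genes, 3.08%). Sparc too depended on its 6 peaks called in SCR only, since its 5 called in both libraries gave -0.15 with a counting interval that included 0 (-0.31 to 0.017). Over peaks called in both libraries, Postn had -0.50, Tnc -0.58, Comp -0.28 and Spp1 0.27, each from 1 peak. Cthrc1, Fap and Cilp had only peaks called in SCR alone, the library where these were high. That all 8 genes were lower therefore does not by itself support a lower level.

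**Figure D2:**
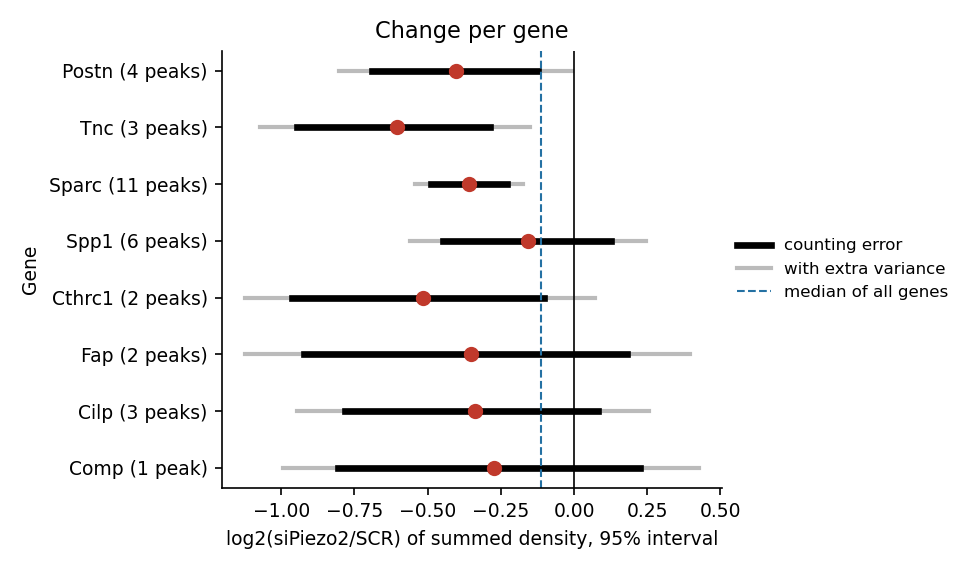
log2 ratio of density summed over each gene's peaks (red points), with 95% intervals for counting error (black) and widened by the robust estimate of the extra variance (grey). All 8 points lie left of 0, from -0.60 for Tnc to -0.16 for Spp1, and the dashed line marks the median of all genes at -0.11.

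The 6 member peaks within 1 kb of a TSS (1 at Postn, 1 at Tnc, 2 at Sparc and 2 at Cthrc1) all had a negative ratio, with a median of -0.57, while the 14801 such peaks of all genes had a median of -0.042. These sets were not selected alike, since 5 of the 6 had been called in SCR only against 42.4% of all TSS peaks. Like for like, the 5 had a median of -0.64 where the 6283 SCR-only TSS peaks had -0.18, and the 1 called in both libraries, at Sparc, had -0.49 where the 8281 of that kind had 0.039. Over the 16 peaks with a member's symbol the median was -0.49 (all peaks with a symbol, -0.12), and over the 16 intergenic peaks it was -0.33 (all intergenic peaks, -0.18). The 9 peaks called in both libraries, which the authors' scaling centres on 0 over all genes, had a median of -0.35 against 0.0025. Peaks assigned to other genes within 100 kb of the members' TSSs numbered 69, with a median of -0.16 and 65.2% below 0, but they differed by locus. The 2 around Postn were both below 0.66 of SCR with a median of -1.33, lower than any Postn peak, while the 11 around Tnc had a median of 0.11, and the other loci had medians between -0.33 and -0.11.

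**Figure D3:**
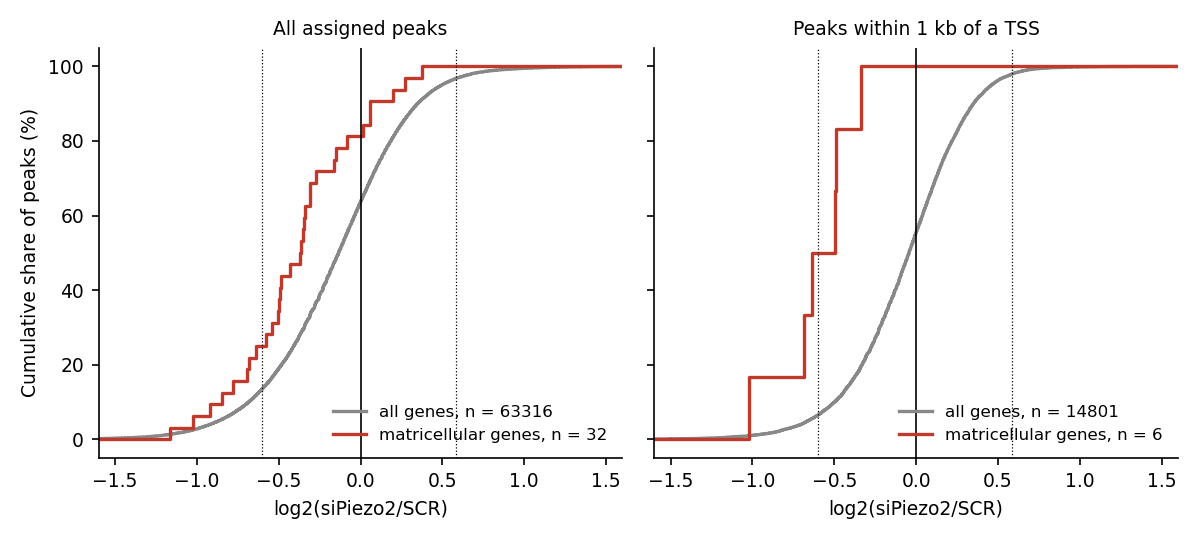
Cumulative share of peaks by log2 ratio, for all peaks (left) and those within 1 kb of a TSS (right), with the 8 genes in red, all genes in grey and dotted lines at 0.66 and 1.5 of SCR. The red curve reaches 0 at 81.3% of the 32 peaks and at 100% of the 6 peaks near a TSS, the grey curve at 63.7% and 55.5%.

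Postn encodes periostin, a secreted protein that promotes collagen cross-linking and marks myofibroblasts in the injured heart. It had 4 peaks, of which 1 carries its symbol. The TSS peak (chr3:54268352-54268675, GRCm39 as are all peak positions here) spanned 178 bases upstream to 145 downstream of the start, and its density was 31.2 in SCR against 21.9 in siPiezo2. From 75 and 35 reads, its log2 ratio was -0.49 (interval -1.13 to 0.089), which counting error alone does not separate from 0. The strongest peak, 2.4 kb upstream (chr3:54265895-54266453), was the only one of the gene called in both libraries. Its density was 49.7 in SCR against 34.9 in siPiezo2, a log2 ratio of -0.50 (-0.997 to -0.038). The intergenic peak 33.0 kb upstream was nearly level at 20.2 and 19.0, and the one 70.7 kb downstream stood at 29.2 and 22.5 with a log2 ratio of -0.36. Summed, Postn went from 130 in SCR to 98.3 in siPiezo2, a log2 ratio of -0.40 (-0.69 to -0.12).

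Tnc encodes tenascin-C, a large hexameric glycoprotein that is low in resting tissue and made during wound repair. It had the lowest ratio of the 8 genes, 107 in SCR against 70.0 in siPiezo2 summed over 3 peaks (-0.60, interval -0.95 to -0.29). Most of this came from the TSS. The peak there (chr4:63965038-63965409, annotated as 5′ UTR), from 157 bases upstream to 214 downstream of the start and so over most of the printed promoter, had a density of 42.3 in SCR against 20.3 in siPiezo2. With 103 and 32 reads its log2 ratio was -1.02 (-1.68 to -0.47), which is percentile 2.5 of all peaks. This peak was called in SCR only, and all SCR-only peaks within 1 kb of a TSS had a median of -0.18. The peak past the 3′ end of the gene (chr4:63876740-63877282) had 45.4 and 30.1, a log2 ratio of -0.58 (-1.11 to -0.088). The intronic peak (chr4:63888277-63888515) did not share the difference, with 19.4 and 19.6. The table measures the distance of these last peaks from the start of an antisense gene, 8030451A03Rik, which also spans the Tnc start. ATAC-seq has no strand, so accessibility at the Tnc start cannot be given to one of the genes alone. An intronic peak of the antisense gene, 25.1 in SCR against 26.8 in siPiezo2, had a log2 ratio of 0.093 (-0.50 to 0.69).

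Sparc encodes osteonectin, a collagen-binding glycoprotein that aids the processing of procollagen. It held 11 of the 32 peaks and the widest spread of the 8 genes. Its 7 peaks by symbol summed to 428 in SCR against 299.8 in siPiezo2, a log2 ratio of -0.51 (-0.67 to -0.35), whereas its 4 intergenic peaks summed to 176 and 171 (-0.042, interval -0.27 to 0.18). These intervals do not overlap, but with the extra variance they do (-0.74 to -0.28 and -0.36 to 0.28, by the robust estimate). The sum by symbol also counts reads shared by overlapping windows more than once, so its interval is too narrow. With all 11 the ratio was -0.36 (-0.49 to -0.23), and with separate windows only, 10 peaks, it was -0.32 (-0.46 to -0.18). Over the 5 called in both libraries, at 349 and 315, it was -0.15 (-0.31 to 0.017).

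The peak over the main Sparc TSS (chr11:55310511-55310986) had a density of 86.7 in SCR against 61.3 in siPiezo2, a log2 ratio of -0.49 (-0.87 to -0.14) from 230 and 91 reads. A weaker peak 4.1 kb upstream (chr11:55314685-55314993), near the start of a longer transcript, had 43.3 and 27.5 (-0.64, interval -1.20 to -0.13). Within the gene the strongest peak of SCR lay in intron 4 (chr11:55296626-55297417). It stood at 108 in SCR against 73.9 in siPiezo2, a log2 ratio of -0.54 (-0.88 to -0.22). A neighbour in intron 5 (chr11:55295607-55295874) had -0.69, and the 2 peaks share reads because their 2000 bp windows overlap. Past the 3′ end, chr11:55283338-55283733 had 52.1 and 27.0 (-0.92, interval -1.48 to -0.43). Against these, the peak in intron 8 (chr11:55287868-55288355) had the higher density in siPiezo2, 36.8 and 42.3, with an interval that included 0 (-0.28 to 0.67).

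Upstream of Sparc, peaks of opposite direction lay near each other. At 8.5 kb upstream of the main TSS (chr11:55318870-55319489) the density was 89.0 in SCR against 116 in siPiezo2, from 243 and 168 reads. Its log2 ratio of 0.38 (0.088 to 0.67) was the highest of the 32 and the only one with an interval above 0. At 13.4 kb upstream (chr11:55323928-55324288) the density was 29.1 and 12.4, a log2 ratio of -1.16 (-2.02 to -0.49) that was the lowest of the 32. The intergenic peaks 33.3 and 41.3 kb downstream of the TSS had -0.51 and -0.35, with intervals that included 0.

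**Figure D4:**
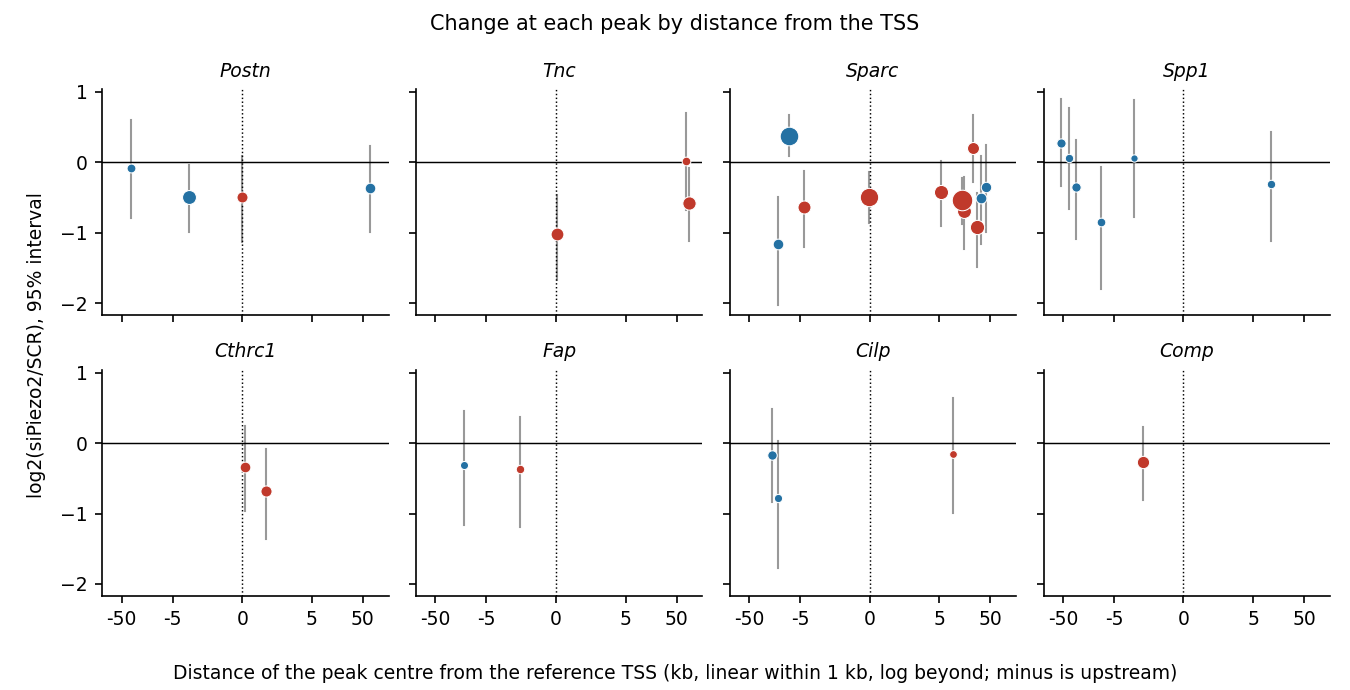
log2 ratio of each peak against its distance from the gene's TSS in kb (linear within 1 kb and log beyond, upstream negative), with 95% counting intervals as lines and point area following SCR density; peaks with the gene's symbol are red and intergenic peaks blue. Points at or next to the TSS of Postn, Tnc, Sparc and Cthrc1 all lie below 0, and Sparc has the 1 peak whose interval is above 0.

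Spp1 encodes osteopontin, an integrin and CD44 ligand made by activated macrophages as well as fibroblasts. It had no peak with its symbol, none within 1 kb of its TSS, and 6 weak intergenic peaks with densities between 13.9 and 22.3 in SCR and between 10.4 and 26.6 in siPiezo2. The peak 9.0 kb upstream (chr5:104573849-104574087) had 19.5 and 10.4, a log2 ratio of -0.84 (-1.80 to -0.068) from 44 and 17 reads. The other 5 had intervals that included 0, and 3 of them had a slightly higher density in siPiezo2, up to 0.27 at 54.4 kb upstream. The sum was 114 in SCR against 102 in siPiezo2 (-0.16, interval -0.45 to 0.13), which at this depth was not distinguishable from no difference. Beside it, the 7 macrophage and leukocyte markers with a peak had a median of -0.37, with 3 intervals below 0 (all genes, 18.6%). Widened by the robust estimate or the mean square, 1 stayed below 0 (all genes, 9.01% and 3.08%). Like Spp1, these markers had no peak within 1 kb of a TSS. Their part in the Spp1 values was not tested.

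Cthrc1 encodes a secreted protein with a short collagen repeat that is induced in activated fibroblasts. Its 2 peaks, both called in SCR only, lay in intron 1 of a transcript, next to the start of another, and share reads. At chr15:38940461-38940661 the density was 29.5 in SCR against 23.2 in siPiezo2 (-0.34, interval -0.97 to 0.24). At chr15:38940963-38941361 it was 31.7 and 19.4 (-0.68, interval -1.36 to -0.089). Summed, Cthrc1 had 61.3 and 42.6, a log2 ratio of -0.52. Its interval (-0.96 to -0.10) is too narrow, because reads in both windows are counted for each.

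Fap, Cilp and Comp had few and mostly weak peaks, none within 1 kb of a TSS. Fap, a membrane-bound serine protease used to mark activated fibroblasts, had a peak 1.1 kb upstream of its TSS (chr2:62405389-62405670) with 18.4 in SCR against 14.02 in siPiezo2, and an intergenic peak 13.7 kb upstream with 16.8 and 13.4. The sums gave a log2 ratio of -0.35 (-0.92 to 0.18). Cilp, cartilage intermediate layer protein, a matrix protein also made by cardiac fibroblasts, had an intronic peak at 15.5 and 13.9 and 2 upstream intergenic peaks. The one 13.7 kb upstream (chr9:65159338-65159541) was at 17.4 and 9.75, below 0.66 of SCR, but from 39 and 16 reads its interval ran from -1.78 to 0.034. The gene's log2 ratio was -0.34 (-0.78 to 0.083). Comp, a thrombospondin family protein that binds collagen, had 1 peak 1.3 kb upstream (chr8:70824546-70825174), called in both libraries, with 38.8 and 31.9 (-0.28, interval -0.81 to 0.22). All 3 ratios were negative, and counting error alone covers each of them.

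The wider matricellular family had 22 of 26 genes with a peak and a median log2 ratio of -0.18, nearer to that of all genes (-0.11) than to that of the 8 genes (-0.35). Of these, 4 were below 0.66 of SCR (all genes, 6.45%) and 0 above 1.5 (all genes, 1.49%). Thbs1, thrombospondin-1, which can activate latent TGF-β, had 446 in SCR against 184 in siPiezo2, a log2 ratio of -1.28 (-1.48 to -1.09). Ccn1 (-0.82), Ccn5 (-0.69) and Ccn2 (-0.65) belong to the CCN family, of which Ccn1 and Ccn2 are well-known targets of the cofactors YAP and TAZ. Intervals lay below 0 for 9 genes (all genes, 18.6%) and above 0 for 1 (all genes, 4.41%). That 1 was Tnxb, tenascin-X, at 192 in SCR and 254 in siPiezo2 (0.40, interval 0.21 to 0.60). Dspp was highest at 0.43, from 32 reads in each library and with an interval that included 0.

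Receptors of matricellular proteins had a median of -0.18 over 17 of 18 genes with a peak, with 0 past 1.5-fold in either direction. Their intervals lay below 0 for 9 (all genes, 18.6%) and above 0 for none (all genes, 4.41%). The lowest was the integrin subunit Itga4 (-0.49) and the highest the scavenger receptor Stab1 (0.35, interval -0.18 to 0.89). The other activated fibroblast markers, all 16 with a peak, had a median of -0.41. Of them, 14 had an interval below 0 (all genes, 18.6%) and 4 were below 0.66 of SCR (all genes, 6.45%). Acta2, smooth muscle α-actin, was lowest, with 209 in SCR against 63.5 in siPiezo2 (-1.70, interval -2.04 to -1.40), followed by Lox, a collagen cross-linking enzyme (-1.06), Tagln, an actin-binding protein (-0.98), and Fn1, fibronectin (-0.87). Meox1 was highest at -0.059. Resting fibroblast markers had a median of -0.16 over 11 of 12 genes, with 0 past 1.5-fold. Their intervals lay below 0 for 4 (all genes, 18.6%) and above 0 for 1 (all genes, 4.41%). They ran from Dpep1 (-0.45) to Cd34 (0.36, interval 0.096 to 0.63). Widened by the robust estimate and by the mean square, the intervals below 0 numbered 6 and 6 for the other matricellular genes. They numbered 7 and 3 for the receptors, 11 and 9 for the other activated markers and 2 and 1 for the resting markers. The shares of all genes were 9.01% and 3.08%. More reads per gene narrow an interval, which these shares do not correct for. The interval of Cd34 then included 0 under both, and that of Tnxb stayed above 0 under both, by the mean square with a lower bound of 4.3e-06.

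**Figure D5:**
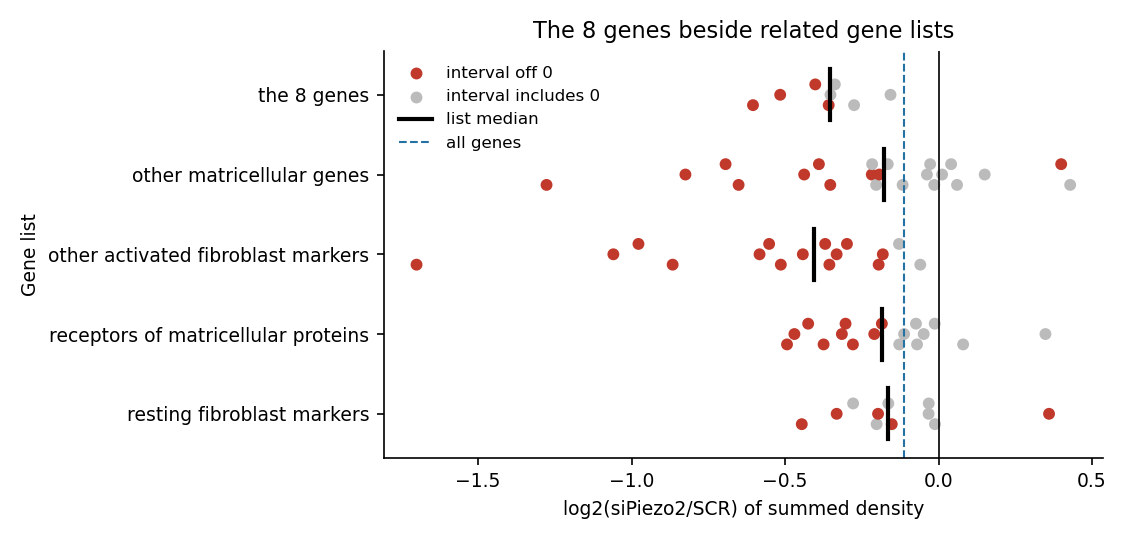
log2 ratio of density summed per gene for the 8 genes and 4 related lists, each point a gene (red where the counting interval is off 0, grey where it includes 0), with black bars for list medians and a dashed line for all genes with a peak. The 8 genes lie between -0.60 and -0.16, inside the range of the other activated fibroblast markers (-1.70 to -0.059).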

How the data were processed

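The peaks are rows of 1 table the authors deposited, in which the signal columns are read densities per library, normalized by a linear fit over peaks called in both libraries (intercept -0.248, slope 0.174 per unit of mean log2 density, both recovered here). Of the values per library only these 2 columns were used. The table also holds the authors' log2 ratios, mean log2 densities and p-values, which were not read. The study names bwa, Picard and MACS2, and the submitters' processing notes name BWA 0.7.12 and mm10, but gene positions in the table are those of GRCm39, so no sequence was read by peak position. The labels and the reagent list name the same ATAC-seq kit, the ATAC-seq protocol names another, and that protocol describes minced tissue where the labels name cultured cells.

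Whole reads per 2000 bp window were recovered from the densities for 100% of peaks (tolerance 0.05). A density is the reads plus 1, per window, after that normalization, and 12555 windows overlap another. Log2 ratios used a pseudocount of 1 and intervals used the reads and the density ratio without it. Gene values are sums over assigned peaks. The table names no symbol for intergenic peaks, which were assigned by its nearest TSS, so gene sums include peaks beyond those with the gene's symbol, and both are compared. Distances in the report are from 1 start per gene, called its main TSS here. It is the start of the transcript that the table names for the gene's peak nearest to a TSS. For Cilp the RefSeq promoter starts 643 bases upstream of it. The members, lists and thresholds (0.66 and 1.5 of SCR) were chosen with earlier results of these data known. Genes named from each related list were the lowest, the highest and those past 1.5-fold, and Tnxb was added for its interval above 0. Recovery of reads and intervals was tested on simulated data. Software was scipy 1.17.1, numpy 2.4.6 and pandas 2.3.3 under Python 3.11.15, with matplotlib 3.10.9.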

Additional observations from a re-analysis of the deposited data

How the results depend on the processing

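With 1 library per condition and a median of 58 and 36 reads per peak, small differences at single peaks were not detectable. The median over the members' peaks (-0.37) stayed negative in every setting run. It was -0.23 with median-of-ratios scaling, -0.23 with trimmed mean scaling, -0.20 from recovered reads at the same total and -0.93 from unscaled reads, where the medians of all peaks moved too. Peaks within 1 kb of a TSS gave -0.57 (all such peaks, -0.042) and stronger peaks -0.49 (all such peaks, -0.092). Without distal intergenic peaks or with the symbol column only it was -0.49 (all such peaks, -0.12), and without Spp1 -0.46. The count below 0.66 of SCR (8 of 32) was 5 with median-of-ratios scaling (8.35% of all peaks under that setting) and 5 with trimmed mean scaling (8.27%), 3 of 6 within 1 kb of a TSS (6.43%), 0 of 9 for peaks called in both libraries (5.36%), 5 of 16 without distal intergenic peaks or by symbol (12.2%), 5 of 19 for stronger peaks (10.7%) and 2 at a fold threshold of 2 (2.76%). The count above 1.5 was 0 throughout. Sparc went from -0.36 to -0.22 under both median-of-ratios and trimmed mean scaling and to -0.15 over its 5 peaks called in both libraries, and turned to 0.38 when its strongest peak by mean density stood for the gene. Cthrc1 was -0.34 with separate windows only, and Spp1 was above 0 in 3 settings, up to 0.27. Tnc, below 0.66 of SCR as deposited, was above it under all 4 other scalings (-0.52 to -0.46) and by its strongest peak alone (-0.58). Genes other than Sparc and Spp1 stayed below 0 in every setting that gave them a value. The symbol-only, unscaled-read and both widened-interval settings were chosen after seeing the data. No paired analysis was possible because each condition had 1 library.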
